A study of Zea mays with 4 samples.

Results

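The genes described here are AGP2 (LOC542737), Agp2 (LOC542072) and AGPLS3 (LOC100125657), a group named for the subunits of ADP-glucose pyrophosphorylase in maize. AGP2 and Agp2 are different genes whose symbols differ only in case. The members are 3 of 1108 genes that the array's annotation names with a single symbol, and each has 1 probe set, the group of short probes that reads 1 transcript. The annotation lists all of them by locus number, and the 3 names were found through their gene numbers among the RefSeq synonyms.

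ADP-glucose pyrophosphorylase joins glucose 1-phosphate and ATP to make ADP-glucose, the glucosyl donor for starch, and is known as a main control point of starch synthesis. The enzyme is built of large and small subunits, both needed for full activity. Plants carry several genes for each kind, used to different degrees in leaf, embryo and endosperm. In maize endosperm the large subunit is encoded by sh2 and the small subunit by bt2, and loss of either gives shrunken, starch-poor kernels. Leaves make transient starch, which is laid down by day and used at night.

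AGPLS3 is a large subunit gene by its name. Agp2 carries the synonym Agpsemzm, that of the small subunit gene of the embryo. For AGP2 the tables used here give no subunit type, and its symbol is also used for arabinogalactan proteins of the cell wall, so its place among these genes rests on the group's label alone. No sequences of the 3 genes were used here.

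The samples are 4 Affymetrix maize arrays of total RNA, 2 from the maize line Cm489 and 2 from the maize line F98908, in a study of the diversity of the maize cell wall. Plants of both lines were taken at an age of 21 days, with 7 leaves, and were grown on potting compost under a light cycle of 16 h and 8 h with natural light at 50% humidity, with no treatment that the labels name. The material is given only as aerial, with no organ or cell type, so fewer cells of a kind and less RNA per cell cannot be told apart in any value below. The second F98908 array repeats the extract label of the first, and the labels do not say whether a line's arrays stand for separate plants. A p-value here therefore reflects no more than the spread between these arrays, which may be technical.

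Values are deposited log2 values, and differences are F98908 minus Cm489 in log2 units. Array medians were between 6.67 and 6.69, and 17 control probe sets for artificial tag sequences reached at most 2.33. A probe set was tested if it was over log2 4 on at least 2 of the 4 arrays, which 11262 did, all 3 members among them.

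The marker genes were mixed. Of the leaf markers, rbcS (Rubisco small subunit) lay between 11.53 and 12.28. Among C4 genes, mdh6 (malate dehydrogenase) lay between 8.90 and 9.93 and the brightest probe set of pdk1 (pyruvate phosphate dikinase, LOC542759) between 8.88 and 9.76. The C4 gene me3 was at 2.99 on 3 of the 4 arrays and barely above it on the other, and pep1 lay between 1.86 and 1.91 on all but Cm489 array 1, where it read 5.44. Of the kernel markers, the storage regulator o2 reached no more than 2.10 on either probe set, and the globulin gene glb2 and the oleosin gene ole1 no more than 2.27 and 2.07. The globulin gene glb1 (LOC732801) reached no more than 2.49, and the zein gene zp27 lay between 4.42 and 5.02 on its brightest probe set. A second gene with the symbol GLB1 (LOC541815), a haemoglobin gene by its synonyms, lay between 7.30 and 8.94. The single root marker found, the O-methyltransferase gene zrp4, read 10.99 and 10.78 in Cm489 and 3.14 and 2.48 in F98908 (limma, adjusted p = 0.000798). The part of this difference in the results below was not tested.

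AGP2 was higher in F98908, AGPLS3 was lower, and Agp2 did not pass the test. In limma's test, adjusted by the Benjamini-Hochberg method over all tested probe sets with a threshold of 0.05, 2 of the 3 genes were thus called, 1 in each direction. Over all tested probe sets 15.3% were called, 7.27% higher and 8.02% lower in F98908. With 3 genes chosen when earlier results of these data were known, the count is a description and not a test of the group.

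AGP2 read 10.05 and 9.91 on the Cm489 arrays and 10.96 and 10.85 on the F98908 arrays. Both F98908 arrays were above both Cm489 arrays, and the nearest arrays of the lines were 0.81 apart. The arrays of a line differed by 0.14 in Cm489 and by 0.10 in F98908. The level thus rose from 9.98 ± 0.10 to 10.91 ± 0.07 (mean ± SD, n = 2 arrays per line), a log2 difference of 0.93 ± 0.11 SE (limma, adjusted p = 0.0193). This is 1.90-fold, with a 95% confidence interval from 1.52-fold to 2.38-fold. The call was lost with any single array left out: omitting Cm489 array 1 gave an adjusted p of 0.0512 and omitting Cm489 array 2 one of 0.0660, while omitting F98908 array 1 or 2 gave 0.162 or 0.135. The difference itself stayed between 0.86 and 0.9998, and the adjusted p was 0.150 when the F98908 arrays were taken as 1 sample.

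AGPLS3, the large subunit gene, read 5.96 and 5.70 on the Cm489 arrays and 5.03 and 5.001 on the F98908 arrays. Both F98908 arrays were below both Cm489 arrays, by at least 0.66. The gap within a line was 0.26 in Cm489 and 0.03 in F98908. AGPLS3 fell by 0.81 ± 0.13 SE (limma, adjusted p = 0.0368), from 5.83 ± 0.19 to 5.02 ± 0.02 (n = 2 arrays per line). It was 1.75-fold lower in F98908, with a 95% confidence interval from 1.35-fold to 2.28-fold lower. Its probe set was the only member's to lie within 2 log2 units of the minimum for testing. Without a filter on dim probe sets the adjusted p was 0.0776, and with the F98908 arrays as 1 sample it was 0.220. Leaving out Cm489 array 1, Cm489 array 2, F98908 array 1 or F98908 array 2 gave an adjusted p of 0.0658, 0.0509, 0.212 or 0.218, and a difference between -0.94 and -0.68.

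Agp2, the small subunit gene of the embryo by its synonym, read 10.53 and 11.06 on the Cm489 arrays and 10.77 and 10.75 on the F98908 arrays. Both F98908 values lay between the Cm489 values, so the lines overlapped. The Cm489 arrays were 0.53 apart, and 83.5% of tested probe sets had a smaller gap between those arrays. The F98908 arrays were 0.02 apart, a gap that 10.4% of tested probe sets undercut. The difference of -0.04 ± 0.22 SE did not pass (limma, adjusted p = 0.920). Its 95% confidence interval ran from -0.65 to 0.57, so a level 1.57-fold lower or 1.49-fold higher in F98908 was within the error. The difference was -0.31 when Cm489 array 1 was omitted and 0.23 when Cm489 array 2 was, and its sign therefore depended on which Cm489 array was kept.

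**Figure D1:**
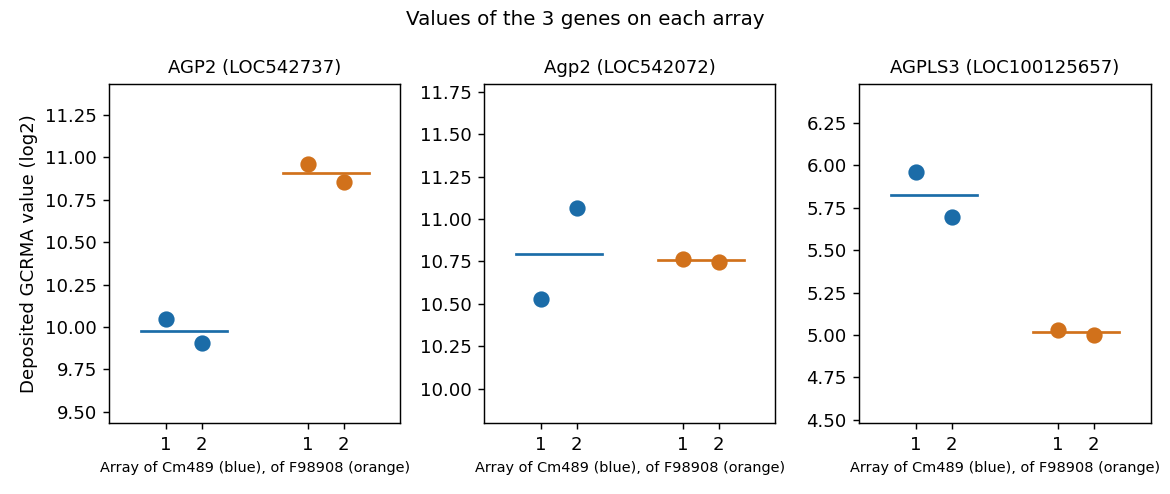
Deposited log2 values of AGP2, Agp2 and AGPLS3 on each array (points; arrays 1 and 2 of Cm489 in blue and of F98908 in orange), with the mean of each line as a bar; every panel spans the same log2 range around its own centre. The lines' points are apart for AGP2 (higher in F98908) and AGPLS3 (lower in F98908), while both F98908 points of Agp2 lie between the Cm489 points.

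The 2 called differences were moderate for this pair of lines. Of the 11262 tested probe sets, 1818 (16.1%) had a larger absolute difference than AGP2, 2144 (19.0%) a larger one than AGPLS3 and 10199 (90.6%) a larger one than Agp2. The median absolute difference was 0.29 and the median signed difference -0.03. AGP2 and AGPLS3 are among the probe sets whose arrays did not overlap between the lines, as were 63.9% of all tested. Their gaps within a line were ordinary, except that of AGPLS3 in F98908, which was small. In Cm489 the AGP2 gap exceeded that of 36.8% of tested probe sets and the AGPLS3 gap that of 59.4%, and in F98908 these shares were 41.8% and 14.7%.

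**Figure D2:**
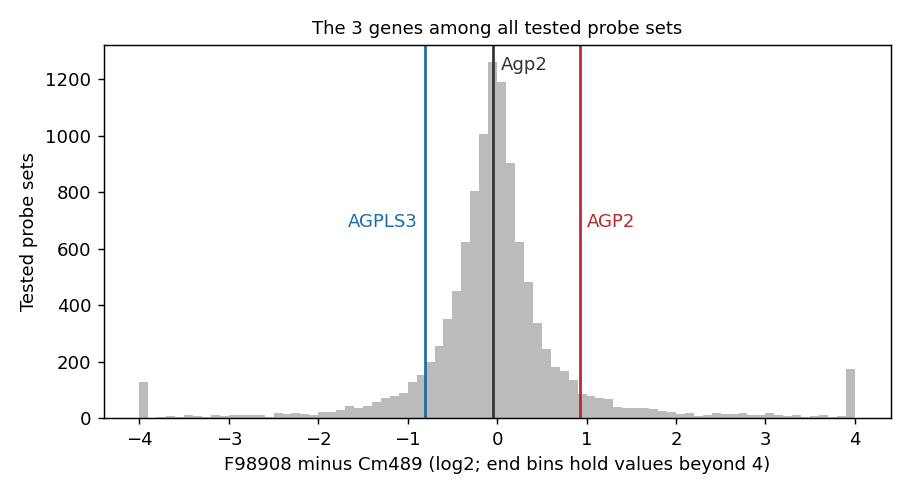
Number of tested probe sets (vertical axis) by log2 difference, F98908 minus Cm489 (horizontal axis, bins of 0.1, with larger differences gathered in the end bins). AGP2 at 0.93 and AGPLS3 at -0.81 lie on opposite shoulders of the distribution, and Agp2 at -0.04 lies at its centre.

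The line differences of the 3 genes were also compared with each other, as 3 pairs, by an exact two-sided permutation test over the arrays. AGP2 moved by 1.74 log2 units relative to AGPLS3, by 0.97 relative to Agp2, and Agp2 by 0.77 relative to AGPLS3. With 2 arrays against 2 there are 6 splits, and each pair gave p = 0.333, the smallest that this exact test allows (also 0.333 after Benjamini-Hochberg adjustment over the pairs). The AGP2 to AGPLS3 contrast had an SD between arrays of a line of 0.09 in Cm489 and 0.05 in F98908. The pairs with Agp2 had a wider spread in Cm489, at 0.48 and 0.56.

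Besides the 3 members, of which AGP2 is placed by the group's label alone, the array holds 3 genes named for this enzyme. Of these 2 were tested. The small subunit gene of the leaf, agpsl1 (listed as GLG1), read 10.64 and 11.11 in Cm489 and 11.50 and 11.23 in F98908. The F98908 arrays of agpsl1 were the higher ones, but its nearest arrays were close and its difference of 0.49 ± 0.22 SE did not pass (limma, adjusted p = 0.228). The endosperm small subunit gene bt2 read 6.87 and 6.77 in Cm489 and 7.05 and 7.14 in F98908. Here too the arrays of the lines did not overlap, and the difference of 0.28 ± 0.11 SE did not pass (limma, adjusted p = 0.179). The endosperm large subunit gene sh2 lay between 2.40 and 2.50 on its brighter probe set and was not tested. The 2 tested genes, agpsl1 and bt2, thus had positive differences without a call. Over all tested probe sets 46.2% were higher in F98908 and 63.9% had no overlap between the lines. With 2 genes, the shared direction and lack of overlap are a description and not a result about the enzyme's genes.

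Beyond the pyrophosphorylase, ADP-glucose is used by starch synthases, which extend the glucan chains. Of 6 starch synthase genes on the array, 3 were tested, of which 1 rose, 1 fell and 1 did not pass. With 15.3% of all tested probe sets called, this count over 3 genes is a description and not a test of the group. The granule-bound starch synthase gene gbssIIa read 7.83 and 8.20 in Cm489 and 8.88 and 9.08 in F98908, with the F98908 arrays higher. It rose by 0.96 ± 0.18 SE (1.95-fold; limma, adjusted p = 0.0458), in the direction of AGP2. The soluble starch synthase gene ss1 read 9.04 and 8.75 in Cm489 and 8.16 and 8.09 in F98908, with the F98908 arrays lower. It fell by 0.77 ± 0.15 SE (1.70-fold lower; limma, adjusted p = 0.0481), in the direction of AGPLS3. Neither synthase was called with any single array left out (adjusted p from 0.0631 to 0.239 for gbssIIa and from 0.0570 to 0.252 for ss1) or without a filter on dim probe sets (0.112 and 0.101). The ss1 call was also lost when the arrays were quantile normalized again (0.0579) or centred on their medians (0.0552). The third, zSSIIb, differed by 0.12 (adjusted p = 0.487). The endosperm synthase genes wx1 (granule-bound), zSSIIa and du1 were not tested, and none of their values exceeded 2.41.

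Across starch and sucrose metabolism, 29 genes apart from the members were found on the array and 16 were tested by their brightest probe set. Of these 1 rose, 1 fell and 14 did not pass, with 3 at an unadjusted p under 0.05. The 2 calls among 16 genes were no larger a share than the 15.3% called over all tested probe sets. Their median difference was -0.03, the same as that of all tested probe sets, with a range from -0.77 to 0.96. AGP2 lay near the upper end of this range and AGPLS3 just below its lower end. In the hexose phosphate group phi1, a glucose phosphate isomerase that supplies the path to glucose 1-phosphate, had a difference of 0.67 ± 0.20 SE (limma, adjusted p = 0.111). The vacuolar invertase gene ivr2, which splits sucrose, was at 10.97 ± 0.43 in Cm489 and 10.26 ± 0.20 in F98908 (limma, adjusted p = 0.172; n = 2 arrays per line).

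The remaining groups of the pathway gave no calls by limma, and none of their tested genes had an unadjusted p under 0.05. The branching enzyme gene sbe1, which forms the branch points of amylopectin, differed by -0.04 (adjusted p = 0.885), and the debranching enzyme gene zpu1, a pullulanase, by -0.36 (adjusted p = 0.342). The sucrose transporter gene sut1 differed by -0.47 ± 0.32 SE (adjusted p = 0.396). The sucrose synthase gene sh1, which cleaves sucrose with UDP, read 11.91 and 12.41 in Cm489 and 12.32 and 12.20 in F98908 on its brightest probe set. The lines overlapped there. On a second tested probe set sh1 read 10.90 and 11.82 in Cm489 and 11.86 and 11.84 in F98908, without overlap. That difference of 0.49 did not pass either (limma, adjusted p = 0.401). Like Agp2 and agpsl1, sh1 was higher on array 2 than on array 1 of Cm489, and so were the sucrose phosphatase gene spp1 (9.85 and 10.32) and the Rubisco activase gene rca1 (6.59 and 7.80), a leaf marker. AGP2 and AGPLS3 were lower on array 2 than on array 1 of that line. So were bt2, ss1, ivr2, sus1 and the hexose phosphate genes frk1 and frk2, while the rest of the tested starch and sucrose genes were higher. Among the leaf and C4 markers, the brightest pdk1 probe set was lower on array 2 (9.38 and 8.88), and rbcS and mdh6 were higher. The part of this difference between the Cm489 arrays in the Agp2 result was not tested.

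**Figure D3:**
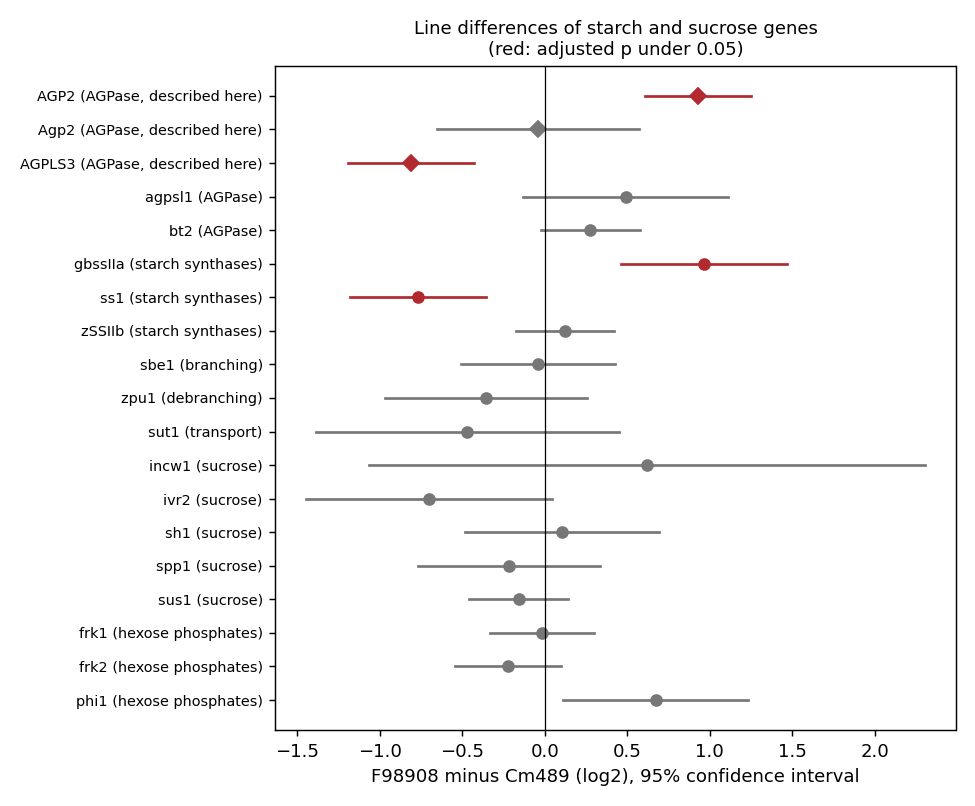
Log2 difference, F98908 minus Cm489 (point), with its 95% confidence interval (line), red where the adjusted p is under 0.05. Diamonds are the 3 members, of which AGP2 is placed by the group's label alone. Circles are the 16 tested starch and sucrose genes apart from the members. Of the 19 genes, AGP2 and gbssIIa rose and AGPLS3 and ss1 fell, while the other intervals belong to genes that did not pass.

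Likeness of pattern was measured as the root mean square difference, over the 4 arrays, between profiles centred on their own means, against 854 other named probe sets that were tested. It is a description over 4 arrays, in which the line difference dominates for AGP2 and AGPLS3 and the gap between the Cm489 arrays for Agp2. Neighbours were picked on these same values, so their line differences and calls follow largely from that choice. The nearest to AGPLS3 was the starch synthase gene ss1, at 0.029 log2 units, followed by gcn5, a histone acetyltransferase gene, at 0.030, and gl8, a ketoacyl reductase gene of wax synthesis, at 0.072. In all, 5.97% of the named probe sets lay within 0.2 of AGPLS3. The gene gcn5 fell by 0.82 ± 0.14 SE (limma, adjusted p = 0.0394), and gl8 had a difference of -0.77 (adjusted p = 0.0717).

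The nearest to AGP2 were toc34, a receptor for protein import into chloroplasts, at 0.062, the prohibitin gene phb4 at 0.068 and HDT1, a histone deacetylase gene of the plant-specific type, also at 0.068. These 3 rose by 0.83, 0.85 and 0.90 (limma, adjusted p = 0.0257, 0.0384 and 0.0201), and 3.86% of named probe sets lay within 0.2 of AGP2. The nearest to Agp2 were hda106, a histone deacetylase gene, at 0.046, pfk1, a phosphofructokinase gene by its symbol, at 0.054, and ccp2, a cysteine protease gene, at 0.055. All of these were highest on Cm489 array 2, as Agp2 was, and none passed the test (differences of -0.13, -0.15 and -0.14; limma, adjusted p = 0.735, 0.691 and 0.726). For Agp2, 22.8% of named probe sets lay within 0.2. The Agp2 profile is shallow (-0.25, 0.29, -0.01 and -0.03 around its mean), so probe sets that hardly changed also fall within that limit. This share is therefore not comparable with those of AGP2 and AGPLS3.

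**Figure D4:**
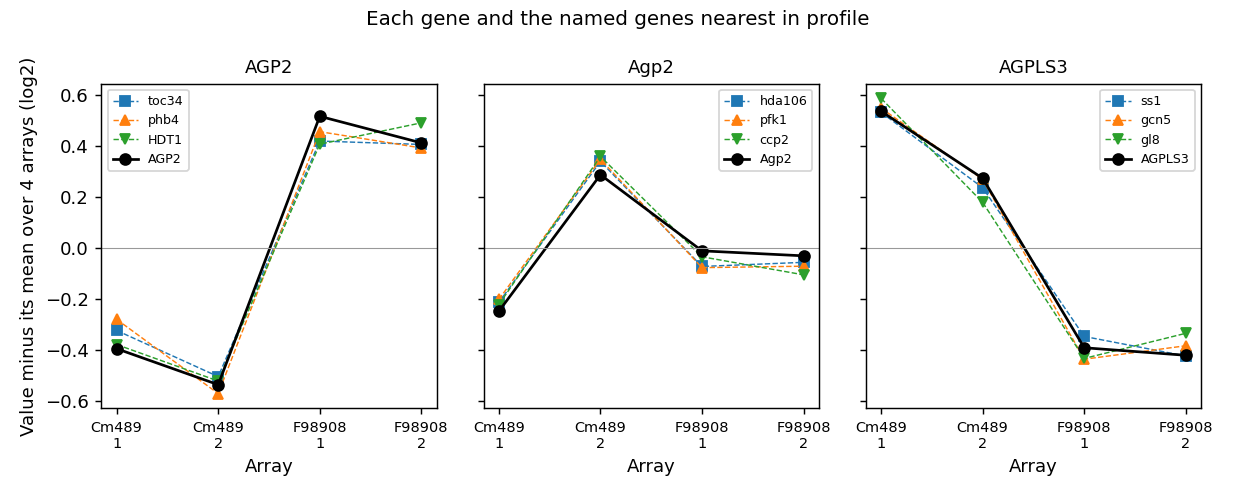
Values on each array minus the gene's own mean over the 4 arrays (log2) for each member (black) and the 3 named genes nearest to it (dashed). AGP2 and its neighbours step up from Cm489 to F98908, AGPLS3 and its neighbours step down, and Agp2 and its neighbours are lowest on Cm489 array 1 and highest on Cm489 array 2.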

How the data were processed

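Total RNA of 2 maize lines was measured on 4 arrays. Per the submitters' processing notes the authors used GCRMA to make the deposited log2 values, 1 per probe set and array (its release is not given in the sources used here). That method models background from probe sequence and forces a common distribution on the arrays, so a difference in total output between the lines is lost. Of 17734 probe sets, 179 array controls and reporters were left out. Scanner files were not used here. Precision is limited by the number of arrays.

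The test between lines was that of limma (version 3.58.1, R 4.3.3; two-sided lmFit and eBayes without a replicate block), adjusted over the 11262 tested probe sets; the fit was tested on simulated data. The replicate numbers do not pair the arrays by any label. Alternatives covered the filter, scaling, eBayes options, probe set types, the block and left-out arrays.

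Symbols are those of the array annotation, matched by gene number to RefSeq (Zm-B73-REFERENCE-NAM-5.0); no build is named for the values, so no positions are given. Members and lists were chosen with earlier results of these data known. The text names the members, each called pathway gene, the smallest p of each pathway group, and the 3 nearest named profiles per member, where locus and marker numbers do not count as names. The genes agpsl1, sh2, sh1, spp1, sus1, incw1, frk1, frk2, zSSIIb, wx1, zSSIIa and du1 were chosen after their values were seen. So were the markers shown.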

Additional observations from a re-analysis of the deposited data

How the results depend on the processing

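In 15 alternatives (14 for AGPLS3, whose probe set is not tested at a mean over log2 6) AGP2 stayed positive and AGPLS3 negative. AGP2 was called in 9 of 15 and AGPLS3 in 6 of 14. AGP2 (difference 0.93) was not called with the replicate block (adjusted p = 0.0787) or the F98908 arrays as 1 sample (0.150), nor with an array left out (0.86 to 0.9998). AGPLS3 (difference -0.81) was not called without a filter (0.0776), with the block (0.113), with F98908 as 1 sample (0.220), with crossed numbers (0.0522) or with an array left out (-0.94 to -0.68). Agp2 was never called and changed sign after quantile normalization (0.018) and among the left-out arrays (-0.31 to 0.23).

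The 819 higher and 903 lower calls became 409 and 371 with the block, 248 and 170 with F98908 as 1 sample, and 257 to 543 and 176 to 536 with an array left out; at a mean over log2 6 there were 505 higher. Without a filter on dim probe sets neither synthase call was kept (limma, adjusted p = 0.112 for gbssIIa and 0.101 for ss1). The 1 pathway gene called there had been too dim for the main test. The 2 pathway calls became 1 after quantile normalization or centring and with robust eBayes. They became 0 with the block, F98908 as 1 sample, crossed numbers or any array left out (limma; 1 to 6 genes at an unadjusted p under 0.05). Of pathway genes without a call, sbe1 (-0.19 to 0.10), frk1 (-0.088 to 0.053), spp1 (-0.45 to 0.013), incw1 (-0.14 to 1.37) and sh1 (-0.14 to 0.35) changed sign with an array left out, and frk1 also after quantile normalization (0.035) and centring (0.017). With an array left out or F98908 as 1 sample, the spread comes from the other line's arrays alone, and a lone array is assumed to vary like them. Same-numbered arrays of the lines deviated oppositely (r = -0.36 across probe sets); the crossed pairing, chosen after seeing the data, gave 885 higher and 968 lower calls. The cause of these changes was not tested.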
